A study of Mus musculus with 55 samples.

Results

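The comparison described here is diestrus against proestrus in the dorsal hippocampus of wild-type (WT) female mice, 11 of the 55 libraries of the series. Members were taken by their labels, WT genotype with a diestrus or a proestrus stage, which gave 6 diestrus and 5 proestrus mice, 1 library per mouse. Of the diestrus mice, 3 carry a plain 3-digit number (548, 549 and 569) and 3 a number in 2 parts (2_2, 380_4 and 8_1), and these are shown apart throughout as the 3-digit and the two-part diestrus mice. All 5 proestrus mice (2_3, 20_2, 4_1, 5_4 and 8_2) carry a number in 2 parts. The whole series covers males and the 4 stages of the female cycle in WT and in Cnih3 knock-out (KO) mice, a line on a C57BL/6J background whose protein, an auxiliary subunit of AMPA receptors, is truncated. RNA was taken from the supernatant of a detergent lysate of the tissue, and stage was scored from vaginal cytology.

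The 3-digit diestrus mice were 12.29, 12.29 and 11.71 weeks old, and the two-part diestrus mice 16.43, 17 and 17.14 weeks. The proestrus mice were 18.71 (2_3), 12 (20_2), 15.86 (4_1), 13.57 (5_4) and 17.14 weeks (8_2). In the study's table of animals, mice 548, 549, 569, 8_1 and 8_2 came from Cnih3 by B6 parents and the other 6 from B6 parents on both sides. Form of number, age and parents therefore run largely together among the diestrus mice, and their parts in a result cannot be told apart, except that proestrus mouse 20_2 was as young as the 3-digit mice and diestrus mouse 8_1 shared their class of parents. Every 3-digit mouse of the series was a diestrus mouse.

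Proestrus is the stage of the preovulatory rise in circulating estradiol, and diestrus the stage of low estradiol with progesterone from the corpora lutea. Estradiol acts in the hippocampus through nuclear receptors and through signalling at the membrane, and dendritic spines and excitability of CA1 pyramidal cells are known to vary over the rodent cycle. Oligodendrocytes wrap the axons of the hippocampus in myelin, and their late genes are switched on by the transcription factor MYRF.

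Myelin genes were among those with the smallest error rates in the comparison. The promoters of 2 myelin genes are shown, and both are among the 5 listed below that held the marked letters. Each window runs from 250 bases before to 50 after a RefSeq transcript start (build GRCm38.p6). Mag encodes a glycoprotein of the inner myelin wrap and Mog one of the outer myelin surface, and their values follow below. Both windows lie on the minus strand, at chr7:30914814-30915113 and chr17:37023349-37023648. Capitals mark CTGGNAC with any base at N, a loose form of the MYRF binding letters, read on both strands. A marked stretch therefore need not be a site that MYRF binds.
Mag: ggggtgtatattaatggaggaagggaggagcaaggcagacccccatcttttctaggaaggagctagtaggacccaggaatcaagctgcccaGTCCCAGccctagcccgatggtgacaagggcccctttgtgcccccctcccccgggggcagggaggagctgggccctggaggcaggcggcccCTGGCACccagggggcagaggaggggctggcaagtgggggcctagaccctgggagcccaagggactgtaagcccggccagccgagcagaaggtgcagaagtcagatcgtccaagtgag
Mog: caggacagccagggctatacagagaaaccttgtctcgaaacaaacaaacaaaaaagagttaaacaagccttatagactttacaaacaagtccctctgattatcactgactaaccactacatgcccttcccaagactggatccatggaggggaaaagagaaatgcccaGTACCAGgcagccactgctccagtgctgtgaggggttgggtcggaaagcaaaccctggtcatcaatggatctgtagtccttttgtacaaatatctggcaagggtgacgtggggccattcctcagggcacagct
The Mag window shown held these letters at 2 places and the Mog window at 1. Another Mag window, at chr7:30914272-30914571, held them at 0 places. Of the 20 mature oligodendrocyte genes used below, 13 had a window and 5 of those (Cnp, Gjb1, Mag, Mog and Opalin) held the letters in at least 1 window, against 21.3% of the 11313 genes with a window. The palindromic estrogen response element, GGTCA and TGACC with 3 bases between them, was found in 1 of 14560 windows and in none of the oligodendrocyte genes or of the 16 estrogen response genes that had a window. The single site GGTCA was present in 7 of those 16 genes (Bdnf, Ctsd, Igf1, Nos1, Nrip1, Oxtr and Vegfa) and in 7 of the 13 oligodendrocyte genes, against 41.7% of all genes with a window. These matches describe letters and not binding.

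Libraries held 25881295 to 62013024 reads counted to genes, and 16168 genes passed the low-count filter. The 3-digit mice stood apart from the other 8. On the first principal component of the 11 libraries, which held 38.1% of the variance, they scored 59.4, 46.8 and 50.5, and the other 8 scored from -41.6 to -5.19. The second component, 20.6% of the variance, set proestrus mouse 8_2 (-71.1) apart from the rest. The summed share of 9 long non-coding RNAs of the nucleus (Malat1, Neat1, Meg3, Miat, Rian, Mirg, Snhg11, Kcnq1ot1 and Pantr1) was 0.0706%, 0.0727% and 0.0901% of all counts in mice 548, 549 and 569. In the two-part diestrus mice it was 0.367% (2_2), 0.257% (380_4) and 0.273% (8_1), and in the proestrus mice it ran from 0.186% to 0.387%. Over all 55 libraries, the 7 3-digit mice, 3 WT and 4 KO, held 0.0706% to 0.106%, and 1 of the other 48 libraries, a WT male, lay inside that range. The study's table also lists RNA integrity below the stated minimum for proestrus mice 4_1 and 8_2.

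**Figure D1:**
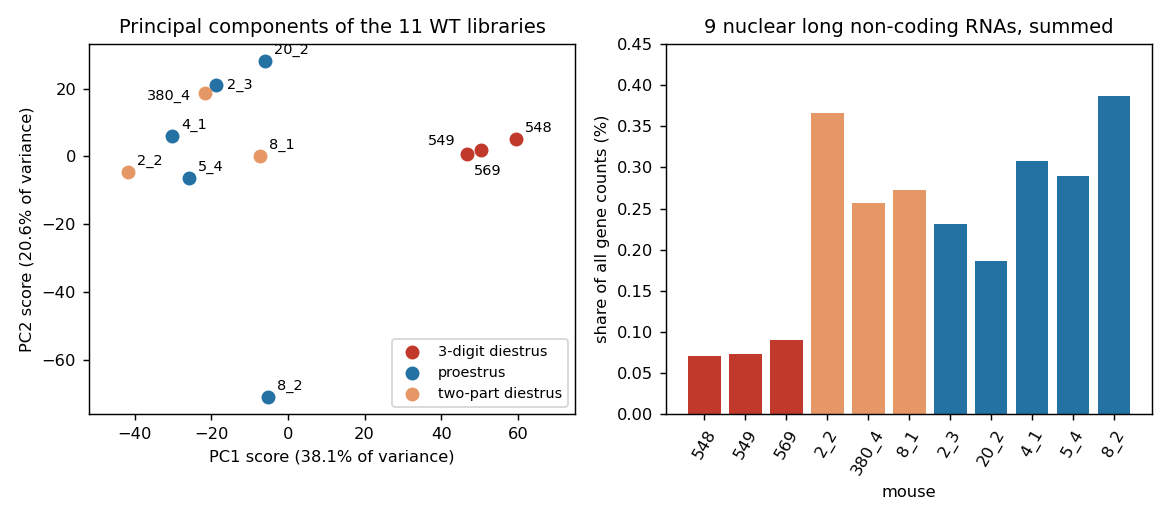
Left, scores of the 11 WT libraries on the first 2 principal components of log2 CPM, 1 point per mouse. Right, percent of all gene counts taken by the 9 nuclear long non-coding RNAs in each mouse; the 3 3-digit diestrus mice (red, 0.0706% to 0.0901%) lie below the 3 two-part diestrus mice (orange) and the 5 proestrus mice (blue), whose lowest value is 0.186%.

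Comparing all 6 diestrus with all 5 proestrus mice, 1131 genes were lower in diestrus, 7% of those tested, and 431 were higher, 2.67% (limma with quality weights, Benjamini-Hochberg false discovery rate (FDR) under 0.05). Among them 333 fell by more than 1 on the log2 scale and 24 rose by more than 1. The count rested on single mice and on the tool. Leaving out mouse 548, 549 or 569 left 0 genes, with 1971, 1943 and 2012 genes at an unadjusted p under 0.05. Leaving out 2_2, 380_4 or 8_1 gave 5128, 5034 and 5215 genes, leaving out proestrus mouse 20_2 gave 2408, and leaving out 4_1 gave 396. The edgeR quasi-likelihood test called 1 gene and DESeq2 15, and limma without quality weights called 5 (Elovl1, Zfp612, Gal3st1, Insc and Adamtsl4). In the weighted fit the 3-digit mice held 61.4% of the weight of the diestrus group.

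Other terms in the fit moved the count too. With age as a covariate 523 genes were called, and with parents as a covariate 72. Within mice of B6 by B6 parents (2_2 and 380_4 against 2_3, 20_2, 4_1 and 5_4) limma called 0 genes, with 910 at an unadjusted p under 0.05. Without the proestrus mice of low RNA integrity, 4_1 and 8_2, 1069 genes were called. For Mag, the difference ranged from -2.06 to -0.54 over 24 alternatives, and for Mageh1 from 0.29 to 0.95, with no change of sign in either.

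**Figure D2:**
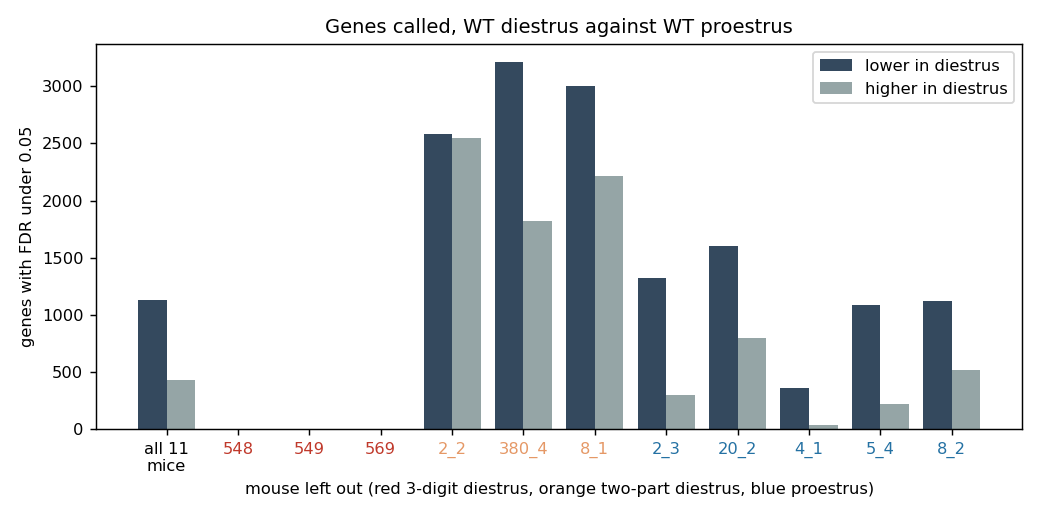
Number of genes with FDR under 0.05 in WT diestrus against WT proestrus (vertical axis) with all 11 mice and after the removal of any 1 mouse, split into genes lower (dark) and higher (light) in diestrus. The bars are at 0 without 548, 549 or 569, and sum to 5034 or more without any 1 two-part diestrus mouse.

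Taken apart, the 2 kinds of diestrus mice gave different counts against the same 5 proestrus mice, which both comparisons share. The 3-digit mice had 3487 genes lower (21.6%) and 2817 higher (17.4%). The two-part mice had 0 genes in limma (0%), where 1050 had an unadjusted p under 0.05 and the smallest FDR was 0.149, and also 0 in edgeR (895 at the unadjusted level) and DESeq2 (959). The 3-digit mice tested directly against the two-part diestrus mice, of the same stage and genotype, had 2806 genes lower (17.4%) and 2206 higher (13.6%), 3576 called in all by edgeR and 3926 by DESeq2. So more genes were called between these mice of one stage than between the stages as labelled. The counts come from different fits, since the fit by stage takes the split as spread within diestrus.

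Looking at the mice rather than the test, the 3-digit mice lay below all of the other 8 in 1830 genes (11.3%) and above them in 1010 (6.25%). The two-part diestrus mice lay below all 5 proestrus mice in 267 genes (1.65%) and above them in 254 (1.57%). All 6 diestrus mice lay below all 5 proestrus mice in 46 genes (0.285%) and above them in 24 (0.148%). How many genes would separate in these ways with mice assigned at random was not tested. Of the 1562 genes called between the stages, 997 had the 3-digit mice outside the range of the other 8, and 36 had the 6 diestrus mice outside the range of proestrus.

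Counts for the lists below can be read beside the shares over all genes tested, 7% lower and 2.67% higher by stage. In the 3-digit mice against proestrus the shares were 21.6% lower and 17.4% higher. Genes of mature oligodendrocytes fell together. Of 20 listed and tested, 16 were lower in diestrus and none was higher, with a median log2 fold change of -0.91 against -0.03 over all genes. The median was -1.22 in the 3-digit mice (17 lower) and -0.37 in the two-part mice (0 called), with all 20 values negative in each. The 3-digit mice were also lower than the two-part diestrus mice in 11 of the 20. The number lower was 0 without 548, 549 or 569 and in edgeR, and 1 in DESeq2. The share of nuclear RNA given above was low in the same 3 mice, and its part in the myelin genes was not tested. In bulk tissue, fewer oligodendrocytes and less RNA per oligodendrocyte cannot be told apart.

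Mag (chr7:30899176-30914873, minus strand), whose promoter is shown above, had the smallest FDR of the comparison together with Mageh1. Its log2 CPM was 5.04, 5.52 and 5.61 in the 3-digit mice, 7.16, 6.77 and 6.94 in 2_2, 380_4 and 8_1, and 7.52, 7.27, 7.87, 6.94 and 6.94 in proestrus. The 3-digit mice were lowest, while the two-part mice overlapped the lower end of proestrus. The stage difference was -1.51 ± 0.23 (SE, FDR = 0.000167), that of the 3-digit mice -2.09 (FDR = 6.57e-11) and that of the two-part mice -0.56 (FDR = 0.621). Over the 55 libraries, Mag was 5.04 to 5.87 in the 7 3-digit mice and 6.13 to 7.87 in the other 48.

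Cldn11, a tight junction protein between myelin layers, was 5.98, 6.59 and 6.25 in the 3-digit mice, 7.65, 7.10 and 7.30 in the two-part mice and 7.15 to 7.85 in proestrus. Again the two-part mice fell inside or just below the proestrus range and the 3-digit mice well below it, and the stage difference was -0.99 ± 0.16 (FDR = 0.000452). Mog was 5.42, 6.10 and 5.59, then 6.74, 6.46 and 6.68, against 6.38 to 7.37 in proestrus (-0.92, FDR = 0.00159). Every two-part mouse lay within the proestrus range for Mog.

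The enzymes of myelin lipids fell with the structural genes. Gal3st1, which makes sulfatide, was 1.53, 1.81 and 1.86 in the 3-digit mice, 2.76, 2.29 and 2.30 in the two-part mice and 2.71 to 3.43 in proestrus (-1.23 ± 0.21, FDR = 0.000452). Here 380_4 and 8_1 also lay below every proestrus mouse, and the two-part difference was -0.82 (FDR = 0.487). Fa2h, the fatty acid 2-hydroxylase of myelin galactolipids, was 2.68, 3.41 and 2.75, then 4.91, 4.05 and 4.45, against 4.22 to 4.93 in proestrus (-1.10, FDR = 0.00129). Ugt8a, which makes galactosylceramide, differed by -1.19 between the stages. Myrf, the regulator named above, was 3.02, 3.55 and 3.46 in the 3-digit mice and 5.03, 4.48 and 4.64 in the two-part mice, against 4.40 to 5.06 in proestrus (-0.90, FDR = 0.00323), so that the two-part mice lay within proestrus.

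Among genes of oligodendrocyte precursors, 2 of 16 were lower and none higher (median -0.27). Both mark committed precursors. Gpr17, a receptor of that stage, was 1.62, 1.94 and 2.14 in the 3-digit mice, 3.56, 2.99 and 3.03 in the two-part mice and 3.12 to 4.03 in proestrus (-1.28, FDR = 0.00128). Enpp6, a choline phosphodiesterase of newly forming oligodendrocytes, differed by -1.20 (FDR = 0.00461). The 5 precursor receptors and proteoglycans and the 4 precursor transcription factors had no call, with medians of -0.35 and -0.18.

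Genes of the node and paranode, where axon and myelin meet, were lower in 4 of 16 (Cntn2, Nfasc, Cntnap1 and Kcna1), with a median of -0.33. The list split by kind of mouse: 12 of 16 were lower in the 3-digit mice (median -0.56), and the two-part mice had a median of 0.12 with none called. Cntn2, an adhesion protein that clusters potassium channels beside the node, was 3.61, 3.61 and 3.53 in the 3-digit mice, 5.76, 5.18 and 5.13 in the two-part mice and 5.13 to 5.74 in proestrus (-1.32 ± 0.21, FDR = 0.000424). Nfasc, the neurofascin gene, was 4.95, 5.19 and 4.91 in the 3-digit mice and 6.03 to 6.61 in the two-part mice, against 6.07 to 6.45 in proestrus (-0.78, FDR = 0.00603). In both genes the 3-digit mice were below every other mouse of the comparison, and the other 2 sets overlapped.

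**Figure D3:**
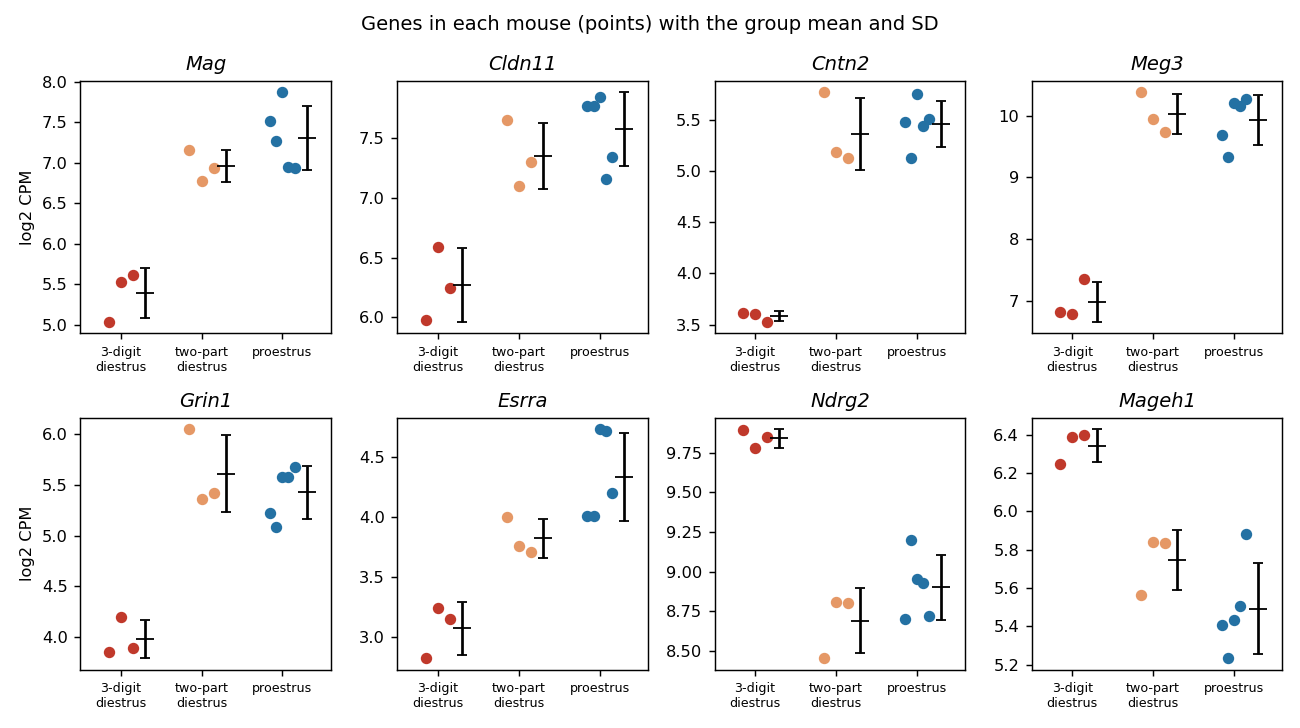
Log2 CPM (vertical axes) of 8 genes in the 3 3-digit diestrus, 3 two-part diestrus and 5 proestrus WT mice, 1 point per mouse, with bars for the group mean and SD. For Mag, Cldn11, Cntn2, Meg3 and Grin1 the 3-digit mice lie below all other mice and for Ndrg2 and Mageh1 above them, while the 6 diestrus values of Esrra lie below the 5 of proestrus.

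Elovl1 (chr4:118428093-118432953), an elongase of very long chain fatty acids, was the gene of smallest FDR whose 6 diestrus mice all lay below all 5 proestrus mice. It was 2.70, 2.92 and 3.10 in the 3-digit mice, 3.84, 3.48 and 3.81 in the two-part mice, and 4.36, 4.19, 4.48, 3.86 and 4.03 in proestrus. The stage difference was -1.07 ± 0.17 (FDR = 0.000401), and that of the two-part mice -0.58 (FDR = 0.582). Mouse 5_4, the lowest of proestrus, was close to 2_2 and 8_1. Zfp612, a zinc finger gene, was the 1 gene that edgeR called (FDR = 0.0492) and lay above proestrus in all 6 diestrus mice: 6.38, 6.30 and 6.05, then 5.93, 6.08 and 5.87, against 5.34 to 5.75 (0.44 ± 0.09, limma FDR = 0.00146).

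Tmem119, a microglial surface protein, was 3.15, 3.70 and 3.83, then 3.74, 3.81 and 3.82, against 3.95 to 4.47 (-0.65, FDR = 0.00834). It was the 1 gene called by stage of 12 microglial markers, whose median was -0.25. In the 3-digit mice 6 of the 12 were lower and 2 higher (median -0.31), where 21.6% and 17.4% of all genes tested were. In the two-part mice 0 were called. The 6 diestrus values of Tmem119 did not overlap the 5 of proestrus, and the 2 kinds of diestrus mice overlapped. Of the 70 genes without overlap, 36 were called between the stages in WT.

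Esrra, the estrogen-related receptor alpha, is an orphan receptor of energy metabolism that does not bind estradiol. It was the 1 gene called by stage of 14 steroid receptor genes and of 22 estrogen response genes. It was 2.82, 3.24 and 3.15 in the 3-digit mice, 4.00, 3.76 and 3.71 in the two-part mice, and 4.01, 4.01, 4.73, 4.72 and 4.20 in proestrus. The 6 and the 5 did not overlap, but 2_2 lay next to 2_3 and 20_2, and the difference was -1.09 ± 0.23 (FDR = 0.00337). The estrogen receptor gene Esr1 was 0.86 to 1.61 in diestrus and 0.85 to 1.42 in proestrus (0.17, FDR = 0.704), and Esr2 had between 0 and 14 reads per library and was not tested. Pgr, the progesterone receptor gene and an estrogen target, was 3.61 to 3.90 in diestrus and 3.67 to 4.21 in proestrus (-0.29, FDR = 0.108). The median over the 22 estrogen response genes was -0.12. In the 3-digit mice 7 of the 22 were lower and 1 higher. Of the 14 steroid receptor genes 4 were lower and 3 higher in the 3-digit mice. Over all genes tested the shares were 21.6% lower and 17.4% higher. In the two-part mice 0 genes of either list were called.

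Of 16 neurosteroid synthesis genes, 1 was called by stage. Srd5a3, a reductase of the steroid 5-alpha family that acts in dolichol synthesis, was 1.91, 2.16 and 2.04 in the 3-digit mice, 4.08, 4.02 and 3.35 in the two-part mice and 3.82 to 4.19 in proestrus (-1.41 ± 0.32, FDR = 0.00627). The 3-digit mice were far below proestrus, and 8_1 was below it by less. The list's median was 0.06. In the 3-digit mice 6 of the 16 were higher and 2 lower (median 0.10), where 17.4% and 21.6% of all genes tested were. In the two-part mice 0 were called.

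Higher in diestrus, Mageh1, a member of the MAGE family on the X chromosome, was 6.25, 6.39 and 6.40 in the 3-digit mice, 5.56, 5.84 and 5.83 in the two-part mice, and 5.41, 5.23, 5.43, 5.51 and 5.88 in proestrus. Its difference was 0.70 ± 0.11 (FDR = 0.000167), and the two-part mice lay above every proestrus mouse but 8_2. Camk2a, the alpha subunit of the synaptic kinase CaMKII, was 11.34, 11.24 and 11.16, then 10.96, 11.02 and 10.77, against 10.44 to 10.96 (0.53, FDR = 0.00382). Pde1a, a calmodulin-dependent phosphodiesterase, was 8.52, 8.33 and 8.15, then 7.65, 7.94 and 7.82, against 7.39 to 7.88 (0.55, FDR = 0.00207). The 3-digit mice were above every other mouse in each of these 3 genes, and the two-part mice overlapped proestrus. Sms, spermine synthase, rose by 0.36, Cdk14, a kinase of Wnt signalling, by 0.31 and Hnmt, the histamine N-methyltransferase, by 0.53, with FDR of 0.00312, 0.00461 and 0.0054.

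Astrocyte genes were higher in 2 of 15 and lower in none (median 0.11). Ndrg2 was 9.89, 9.78 and 9.85 in the 3-digit mice, 8.45, 8.81 and 8.81 in the two-part mice and 8.70 to 9.20 in proestrus. The 3-digit mice were above proestrus and the two-part mice in its lower part or below it, with differences of 0.94 (FDR = 1.22e-08) and -0.16 (FDR = 0.823). Aldh1l1, the folate enzyme used as a pan-astrocyte marker, was 5.85, 5.74 and 5.66, then 4.87, 5.08 and 4.94, against 4.47 to 5.34 (0.55, FDR = 0.0247). The list's median was -0.02 without mouse 549, with 0 genes called. Over the list, 5 genes were higher in the 3-digit mice than in the two-part diestrus mice and none was lower.

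The RNAs of the nucleus fell in 5 of 10 and rose in 1 (median -0.83), and the medians were -1.28 in the 3-digit and 0.12 in the two-part mice. Meg3 (chr12:109541001-109571726), a long non-coding RNA of the imprinted Dlk1 locus, was 6.82, 6.78 and 7.35 in the 3-digit mice. It was 10.37, 9.94 and 9.74 in the two-part mice and 9.69, 9.33, 10.20, 10.16 and 10.26 in proestrus. The stage difference of -1.83 ± 0.41 (FDR = 0.00569) thus joined a difference of -2.97 (FDR = 3.1e-09) in the 3-digit mice to 1 of 0.03 (FDR = 0.993) in the two-part mice. Snhg11, another neuronal long non-coding RNA, was 6.64, 6.40 and 6.76, then 9.45, 9.26 and 8.93, against 8.71 to 9.12 (-1.42, FDR = 0.00949), and Miat, a nuclear RNA of neurons, differed by -1.78 (FDR = 0.00767). Rian, from the same imprinted locus as Meg3, was higher, at 7.15, 7.09 and 7.18, then 7.26, 7.38 and 6.98, against 6.24 to 7.04 (0.39, FDR = 0.0398). For Rian the 2 kinds of diestrus mice overlapped (-0.05, FDR = 0.818).

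Genes of excitatory synapses were called by stage as follows, where 7% of all genes tested were lower and 2.67% higher. Of 6 NMDA receptor genes, Grin1 and Grin2d were lower (median -0.21). Grin1, the obligatory subunit, was 3.85, 4.20 and 3.89 in the 3-digit mice, 6.05, 5.36 and 5.42 in the two-part mice and 5.08 to 5.68 in proestrus (-0.85 ± 0.24, FDR = 0.0187). The two-part mice were level with proestrus or above it. Of 23 AMPA receptor genes, 1 was lower, Cacng8, an auxiliary subunit abundant in the hippocampus, at 2.42, 2.37 and 2.31, then 3.73, 3.29 and 3.23, against 3.24 to 3.88 (-0.84, FDR = 0.0297). The pore subunit gene Gria2 was 8.30, 8.43 and 8.30 in the 3-digit mice, 9.41, 9.45 and 9.23 in the two-part mice and 9.04 to 9.18 in proestrus. Its values were lowest in the 3-digit and highest in the two-part diestrus mice, and the stage difference was -0.38 (FDR = 0.0729). The median of the AMPA receptor genes was -0.12, and 0.06 without mouse 548. Against the two-part diestrus mice, 8 of 23 AMPA receptor genes were lower in the 3-digit mice. Cnih3 itself was 4.78 to 4.92, then 4.95 to 5.79, against 4.43 to 5.97 in proestrus (-0.42, FDR = 0.137). Of 28 postsynaptic scaffold and kinase genes, 2 were higher (Shank1 and Camk2a) and none lower, with a median of -0.00.

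Of 19 genes of GABA-A receptors and GABA handling, 2 were higher and 1 lower. Gabra2, a receptor subunit, was 7.54, 7.68 and 6.98, then 6.89, 6.88 and 7.46, against 6.43 to 7.27 (0.80, FDR = 0.0221). Mice 8_1 and 8_2 were both high, within their sets.

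Potassium channel genes were lower in 10 of 51 and higher in none (median -0.15), and 22 were lower in the 3-digit mice (median -0.31) against 0 in the two-part mice (median 0.08). Over all genes tested, 7% were lower by stage and 21.6% in the 3-digit mice. Kcnk1, a background channel, was 5.21, 5.65 and 5.92, then 6.23, 6.37 and 6.14, against 6.03 to 6.49 (-0.61, FDR = 0.00851). Kcnh3, a slow voltage-gated channel, was 3.01, 3.24 and 3.85, then 4.49, 3.80 and 3.78, against 3.81 to 5.07 (-1.14, FDR = 0.00768). For Kcnh3, mice 569, 380_4 and 8_1 were level with proestrus mouse 20_2.

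Immediate early genes, which neurons switch on with activity, had negative differences in 20 of 22 (median -0.40), and 2 were called. Junb was 3.25, 3.78 and 4.89 in the 3-digit mice, 5.29, 4.72 and 4.80 in the two-part mice, and 5.14, 5.55, 5.55, 5.67 and 4.84 in proestrus (-1.17 ± 0.33, FDR = 0.0197). Mouse 569 overlapped proestrus and so did 2_2. Jun was 4.74, 4.82 and 4.96, then 6.43, 5.80 and 4.74, against 5.15 to 6.37 (-0.91, FDR = 0.0472), and 8_1 was as low as the 3-digit mice. None of the 22 genes differed between the 2 kinds of diestrus mice at an FDR under 0.05. The median by stage was -0.15 in edgeR and in DESeq2 and -0.11 with parents as a covariate. Within B6 by B6 parents it was -0.002. In each of these settings 0 of the 22 genes were called.

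Markers of principal cells were called by stage in 1 of 9 CA1, 3 of 12 dentate and 1 of 14 CA2 and CA3 genes. Over all genes tested, 7% were lower and 2.67% higher by stage, and 21.6% were lower in the 3-digit mice. The 9 CA1 genes had a median of -0.35 (-0.47 in the 3-digit mice with 4 lower, and -0.00 in the two-part mice), the 12 dentate granule cell genes -0.20 (-0.38 with 6 lower, and 0.05) and the 14 CA2 and CA3 genes 0.05. Of the CA1 genes, Wfs1, an endoplasmic reticulum protein, was lower, at 5.57, 5.88 and 5.29, then 6.59, 6.27 and 6.58, against 6.53 to 6.73 (-0.61, FDR = 0.019). Of the dentate genes, C1ql2, Trpc6 and Stxbp6 were lower, and of the CA2 and CA3 genes, Cpne4 was higher. C1ql2, a synaptic organiser secreted by mossy fibres, was 2.94, 3.32 and 3.51, then 5.17, 4.14 and 4.15, against 3.66 to 5.26 (-0.78, FDR = 0.0432). By stage, no call was made among 20 interneuron, 12 endothelial and mural, 9 thalamic and 18 glucocorticoid response genes. Of 9 neocortical and 5 blood genes, 1 each was called by stage (Hs3st4, higher, and Alas2, lower). All 5 blood genes were lower in the 3-digit mice against proestrus (median -0.91), and 0 were called in the two-part mice (median -0.40). Among 33 splicing factors, Rbfox1 and Elavl4 were higher and Srsf2 and Srsf11 lower.

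Markers of tissue next to the hippocampus varied from mouse to mouse. The 12 choroid plexus genes summed to 218 to 1166 CPM in the 3-digit mice, 51.4 to 183 in the two-part mice and 56.3 to 1472 in proestrus, and none was called despite a median of -1.53. The summed level of the 3 pituitary genes tested was 4.67 to 22.6 CPM in the 3-digit mice, 23.7 to 75.8 in the two-part mice and 30.5 to 102 in proestrus. Prl, the prolactin gene, was -1.18, 0.59 and 3.20 in the 3-digit mice, 4.82, 3.36 and 4.93 in the two-part mice and 3.77 to 5.79 in proestrus (-2.84, FDR = 0.0854). Of the pituitary markers not tested, Lhb had 0 reads in all 11 libraries, and Pou1f1 had 0 reads in 9 of them. Tshb had 4 to 47 reads in each of the 11. Cga had 0, 1 and 0 reads in the 3-digit mice, 13, 0 and 14 in the two-part mice and 6 to 25 in proestrus. Of 7 meningeal genes none was called (median -0.92). The part of adjoining tissue in the stage differences was not tested.

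**Figure D4:**
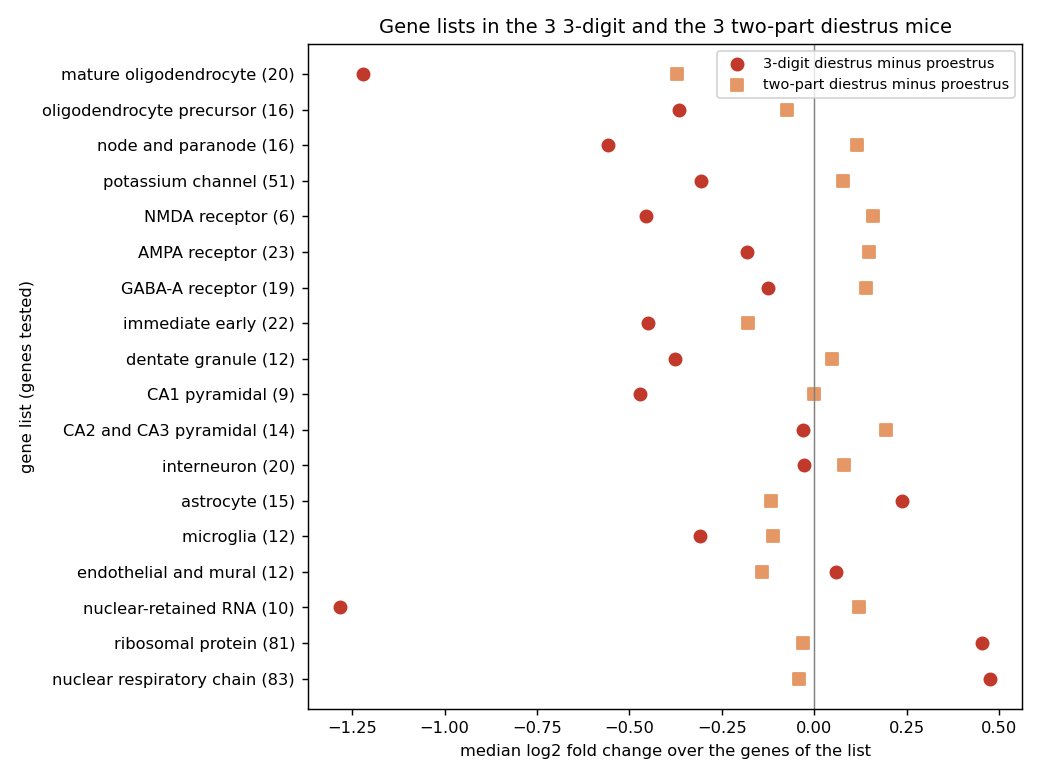
Median log2 fold change (horizontal axis) over the tested genes of 18 lists, for the 3 3-digit (circles) and the 3 two-part diestrus mice (squares), each against the same 5 proestrus mice. Mature oligodendrocyte genes are negative in both (-1.22 and -0.37), while nuclear-retained RNA (-1.28 and 0.12), node and paranode (-0.56 and 0.12), ribosomal protein (0.45 and -0.03) and respiratory chain (0.47 and -0.04) medians lie farther from 0 in the 3-digit mice. For GABA-A receptor genes the medians are -0.13 and 0.14, about as far from 0 in both.

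Genes of the ribosome and of the respiratory chain were set beside all genes tested. Of those, 2.67% were higher by stage and 17.4% in the 3-digit mice. Of 81 ribosomal protein genes, 6 were higher and none lower (median 0.28), and of 83 nuclear respiratory chain genes 21 were higher and 1 lower (median 0.30). In the 3-digit mice 76 and 72 were higher (medians 0.45 and 0.47), and in the two-part mice 0 (medians -0.03 and -0.04). Rpl4, a protein of the large subunit, was 10.84, 10.76 and 10.93, then 10.16, 10.42 and 10.49, against 10.32 to 10.59 (0.30, FDR = 0.0273). Ndufb9, a subunit of complex I, was 8.15, 8.09 and 8.11, then 7.26, 7.22 and 7.53, against 7.22, 7.30, 7.34, 7.37 and 8.37 in proestrus (0.50, FDR = 0.0187). Mouse 8_2 was the highest of all for Ndufb9, and its ribosomal protein share, 4.28% of counts, was also the highest, against 3.25% to 3.50% in the 3-digit mice and 2.30% to 2.90% in the two-part mice. These counts moved with the tool and with single mice. In edgeR, DESeq2 and limma without weights no gene of either list was called higher, and the medians were 0.02, 0.03 and 0.05 for ribosomal protein and 0.04, 0.05 and 0.07 for respiratory chain genes. With age or parents as a covariate, in the 11 libraries alone and without 548, 549 or 569 no gene was called higher either. The ribosomal protein and respiratory chain counts were 0 and 4 without 2_3, 0 and 1 without 4_1, 39 and 45 without 8_2, and 68 to 75 and 65 to 69 without 2_2, 380_4 or 8_1. The respiratory chain gene called lower was Uqcrfs1, the Rieske iron-sulfur protein of complex III, at 5.89, 5.84 and 5.85, then 7.78, 7.77 and 6.16, against 6.89 to 8.17 (-1.64, FDR = 0.00979), with 8_1 and 8_2 the lowest of their sets.

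The direction also went with transcript length. Over 5 equal classes of genes by summed exon length, the median log2 fold change of the 3-digit mice against proestrus was 0.29 in the shortest class (up to 1890 bases) and then 0.00, -0.06, -0.12 and -0.17 in the longest (7245 bases or more). In the two-part mice the same medians were -0.02, -0.05, -0.02, 0.02 and 0.06. The median exon length was 1781 bases over the ribosomal protein genes, 3029.5 over the mature oligodendrocyte genes and 4034 over all genes tested. By GC content of the longest transcript, the highest of 5 classes held 407 of the 1131 genes lower in diestrus, with a median of -0.14 against 0.00 in the lowest. The part of length and base composition in the gene groups above was not tested.

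**Figure D5:**
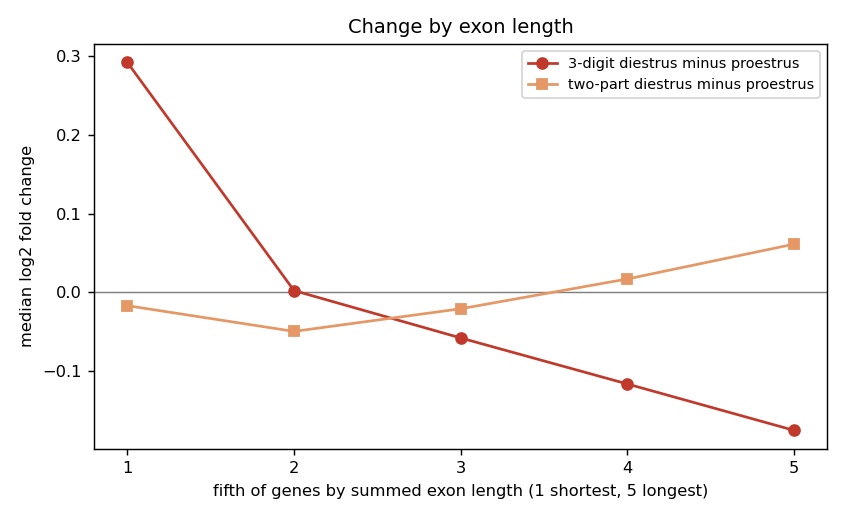
Median log2 fold change (vertical axis) in each of 5 equal classes, by summed exon length, of the 16156 genes tested that had one, shortest to longest, for the 3-digit (circles) and two-part (squares) diestrus mice against the same 5 proestrus mice. The 3-digit medians go from 0.29 to -0.17 and the two-part medians from -0.02 to 0.06.

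The 5 largest decreases among called genes (Nupr1l, Rbfa, Taf6l, Tmem259 and H2aj) followed neither the stage nor the form of number. Taf6l, which encodes a subunit of the PCAF and SAGA acetylase complexes, was 0.85, 0.39 and 0.92 in the 3-digit mice, 3.44, 3.89 and 0.65 in 2_2, 380_4 and 8_1, and 3.82, 4.08, 3.86, 4.15 and 0.94 in proestrus. Mice 548, 549, 569, 8_1 and 8_2 were low and the other 6 high, and these low mice are the 5 from Cnih3 by B6 parents. The stage difference was -2.63 ± 0.79 (FDR = 0.0291). H2aj, a histone H2A variant, was 2.36, 1.74 and 2.76, then 5.46, 5.00 and 3.18, against 5.36, 5.12, 5.50, 5.49 and 3.24 (-2.41, FDR = 0.00933). Over the whole series Taf6l was under 2.5 in 33 of 55 libraries, among them 7 of the 16 WT mice with B6 parents on both sides and 8 of the 11 with Cnih3 by B6 parents, so both classes held low and high libraries. In all, 587 genes were lower in each of those 5 WT mice than in any of the other 6, and 840 were higher. Of the 587, 286 were called lower in diestrus, and of the 840, 130 were called higher. Over all genes tested, 7% were called lower and 2.67% higher. For 12 of the 587 the gap was more than 1 log2 unit, and 11 of the 12 were called. The grouping was made after values were seen, and all of the 5 but 8_2 were diestrus mice. Wdfy1, an endosomal protein and among the 5 largest increases, was 5.74, 6.53 and 6.54 in the 3-digit mice, 5.82 in 380_4, 6.44 in 8_1 and 5.88 in 8_2, and 4.20 to 4.44 in the other 5.

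The first part of a two-part number is shared by a diestrus and a proestrus mouse in 2 cases, and neither pair holds a 3-digit mouse. Between 2_2 and 2_3, both from B6 parents, 736 of the 1562 called genes (47.1%) differed in the direction of the stage comparison. Between 8_1 and 8_2, both 17.14 weeks old and from Cnih3 by B6 parents, 876 did (56.1%). These shares come from 1 mouse against 1, with no test, and both pairs entered the comparison that chose the genes. For Mag, 2_2 lay 0.36 below 2_3 and 8_1 level with 8_2, at 6.94 each.

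The same comparison in KO mice, 6 diestrus against 4 proestrus, shares no library with WT. It holds the same split, since 4 of the 6 KO diestrus mice and no KO proestrus mouse carry a 3-digit number. The KO comparison had 3143 genes lower (19.4%) and 2407 higher (14.9%), 5550 of 16168 in all. Of the WT calls, 997 were called in the same direction in KO, 63.8% of the WT and 18.0% of the KO calls, and 1 in the opposite direction. Mag differed by -1.63 in KO (FDR = 5.36e-07), Cldn11 by -1.25, Elovl1 by -1.14, Meg3 by -2.45 and Esrra by -1.26 (FDR = 1.14e-05). Insc, a gene of spindle orientation that fell in WT by 1.49 on the log2 scale (FDR = 0.000626), differed by -0.28 in KO (FDR = 0.382). Taf6l differed by -0.14 in KO (FDR = 0.923). It was under 2.5 in all 6 KO diestrus and all 4 KO proestrus libraries, so no high library entered the KO comparison. Ribosomal protein genes had a KO median of -0.00 with 3 called higher, against 0.28 in WT. The difference of the stage change between WT and KO had 0 genes in limma (0%), edgeR and DESeq2, with 2076, 418 and 443 at an unadjusted p under 0.05. Without 548, 549, 569 or 5_4, limma called 426, 324, 334 and 1.

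KO diestrus mice also fall into 4 with a 3-digit number, aged 10.86 to 13.86 weeks, and 2 others, aged 16.29 and 23.43 weeks. Between these, 1165 genes were lower in the 3-digit mice (7.21%) and 237 higher (1.47%). Of these calls 1047, or 74.7%, had the same direction and a call in the 3-digit against two-part comparison of WT, which is 20.9% of the WT calls, and 0 were called in the opposite direction. Meg3 was 6.78 to 7.68 in all 7 3-digit mice and 7.99 to 10.5 in the other 48 libraries.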

How the data were processed

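RNA from dorsal hippocampus was sequenced by the authors as polyadenylated RNA, paired ends. Per the submitters' processing notes and the study's methods, reads were aligned to GRCm38 with STAR 2.7.9a and counted with featureCounts 2.0.3, and the whole-number counts per gene were deposited. The deposited log2 CPM of the authors served as a check only. Of the table's columns, 1 matched no sample and was not used.

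From the counts, 5 ribosomal RNA genes were left out and genes above 1 CPM in at least 10 of 55 libraries kept (16168). TMM factors, voom with quality weights and empirical Bayes tests (R 4.3.3, limma 3.58.1) were fitted over all 55 libraries with 1 mean per group, the diestrus groups also split by form of mouse number, and p-values were adjusted by Benjamini-Hochberg over all genes, threshold 0.05. Values per mouse are log2 CPM from TMM. Limma with quality weights and edgeR were tried on simulated counts for WT diestrus against WT proestrus, and the other fits were not. Alternatives were edgeR 4.0.16, DESeq2 1.42.0, other scaling, filters, covariates, subsets and leaving out each mouse. The KO split, GC content, nuclear RNA in all libraries and list counts by setting were added after seeing the data.

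The mice, gene lists and tests were chosen with earlier results of these data known. Named genes are the 10 of smallest FDR and 5 of largest change in each direction, the 5 of smallest FDR in each direction for the split comparisons, at most 4 per list and set markers. Mog, Fa2h, Myrf, Ugt8a, Rian and the called members listed by name were named after their values were seen. Replicates are separate mice. A few genes are not reported here.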

Additional observations from a re-analysis of the deposited data

Results flagged for a closer look

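Among 86 groups of values examined for a single distant mouse, 7 had one. Chance gives about 1 in 20 for groups that are independent and not selected. That rate does not hold here, since genes were named by their values in these mice and the groups share libraries. The 7 are not separate events, since all 7 were proestrus mouse 8_2. It was the lowest of the 5 proestrus mice for Taf6l (0.937 log2 CPM, the others 3.82 to 4.15), Adamtsl4 (1.78, the others 2.53 to 2.71), Zfp612 (5.34, the others 5.68 to 5.75) and H2aj (3.24, the others 5.12 to 5.50). It was the highest for Sdr39u1 (5.44, the others 4.69 to 4.88) and Wdfy1 (5.88, the others 4.20 to 4.41), and ribosomal protein genes took 4.28% of its counts (the others 2.46% to 2.78%). Its quality weight was the lowest of the 11 libraries, 0.194, so it counted least in the weighted fit.

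The 3-digit and the two-part diestrus mice share stage and genotype, and 5012 genes differed between them (limma, FDR under 0.05), against 1562 between the stages. A direct test of these mice against each other gave that number.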

How the results depend on the processing

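For WT diestrus against WT proestrus (1562 genes), edgeR called 1 gene, limma without quality weights 5, DESeq2 15, no filter on low counts 189, age as a covariate 523, parents as a covariate 72, a fit of the 11 libraries alone 380, mice of B6 by B6 parents 0, two-part diestrus mice alone 0 and 3-digit diestrus mice alone 6418. Leaving out 1 mouse gave 0 to 5215: 0 without 548, 549 or 569, 5128 without 2_2, 5034 without 380_4, 5215 without 8_1, 2408 without 20_2 and 396 without 4_1. For the 3-digit mice against proestrus (6304 genes) edgeR called 3158, limma without weights 3045 and DESeq2 3428. For the two-part mice (0 genes) the fit without a filter called 3 and leaving out 1 mouse gave 0 to 2 (2 without 2_3, 1 without 5_4). For the difference between WT and KO (0 genes), leaving out 1 mouse gave 0 to 426: 426 without 548, 324 without 549, 334 without 569 and 1 without 5_4. In the fit of the 11 libraries alone the spread comes from fewer samples; the cause of the other changes was not tested. The 3-digit against two-part comparison stayed within 1.5 times its 5012 genes throughout, between 3369 and 5030.

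No paired analysis was possible because mouse numbers are unique and 2 pairs at most share a first part; that first part as a replicate block in the fit gave 1560 genes with an estimated correlation of -0.00248.

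Of the named genes that were called between the stages, those that changed sign did so in the two-part mice alone or within B6 by B6 parents. Named genes without a call changed sign under further settings too. In the two-part mice the log2 fold change became -0.16 for Ndrg2, 0.0158 for Cntnap1, 0.0254 for Meg3, 0.19 for Il1rap, -0.13 for Asrgl1, 0.10 for Grin1, 0.0239 for Trpc6, 0.18 for Srsf2, 0.17 for Slf2, -0.002 for Smc1a, 0.19 for Snhg11, -0.0011 for Fxyd6 and 0.13 for Miat. Within B6 by B6 parents it became -0.26 for Ndrg2, -0.0272 for Slc25a18, -0.0268 for Rps25, 0.13 for Cntnap1, 0.29 for Meg3, -0.055 for Ndufb9, 0.24 for Il1rap, -0.19 for Asrgl1, 0.0922 for Nfasc, 0.31 for Grin1, -0.0056 for Hnmt, -0.0318 for Ndufa4, 0.0141 for Trpc6, -0.0795 for Rpl4, 0.18 for Srsf2, 0.28 for Slf2, 0.28 for C1ql2, -0.0097 for Rps21, 0.40 for Snhg11, 0.16 for Kcnf1, 0.20 for Jun, 0.0968 for Srsf11, -0.011 for Fxyd6, -0.0253 for Atp5md, -0.052 for Rpl13a, 0.17 for Neat1 and 0.36 for Miat.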

Other observations

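Mitochondrial transfer RNA genes were among the largest increases in diestrus. The log2 CPM of mt-Tv, the valine transfer RNA, was 2.32, 2.35 and 2.14 in the 3-digit mice, 1.23, -0.37 and 1.04 in the two-part mice and -0.66 to 0.47 in proestrus (1.79, FDR = 0.00916). The leucine transfer RNA mt-Tl1 was 2.39, 2.52 and 2.31, then 1.28, 1.36 and 1.73, against 0.50 to 1.43 (1.43, FDR = 0.00847). The 3-digit mice were highest for both and the two-part mice overlapped proestrus. Of the 13 mitochondrial messenger RNAs none was called by stage, with a median of 0.32. In the 3-digit mice 5 of the 13 were higher and 0 lower (median 0.49), where 17.4% of all genes tested were higher. In the two-part mice 0 were called.

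Between the two-part mice and proestrus no gene was called, and the smallest FDR, 0.149, belonged among others to Pcp4l1 and Tsc22d4. Pcp4l1, a small calmodulin-binding protein, was 6.25, 6.27 and 6.35 in the two-part mice and 6.40 to 7.17 in proestrus (-0.61), with the 3-digit mice inside the proestrus range at 6.51 to 6.76. Tsc22d4, a leucine zipper protein, was 6.81, 6.55 and 6.82 against 7.12 to 7.68 (-0.67), with the 3-digit mice at 7.09 to 7.34. For both genes the two-part diestrus mice lay below every proestrus mouse, while all 3-digit mice but 548 for Tsc22d4 lay within its range.

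Col9a3, a chain of collagen IX, was 0.02, 0.99 and 1.17, then 1.36, 0.77 and 1.37, against 0.96 to 3.39 (-1.89, FDR = 0.00159), and the 2 kinds of diestrus mice overlapped (-0.38, FDR = 0.58).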
